A study of Homo sapiens with 4 samples.

Results

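The genes described here encode the human proteasome, its activators, its assembly chaperones and the transcription factor NFE2L1. They were chosen by symbol, and all 48 were found, each on 1 line, among the 57979 genes of the deposited table. Polyadenylated RNA was sequenced from cells described as HepG2, a human hepatoma line, in 2 libraries labelled wild-type and 2 libraries labelled TXNDC9 knockout. The knockout cells carried Cas9 and a guide RNA against the first exon of TXNDC9, delivered by lentivirus, and the wild-type libraries carry no other genotype in the labels. Neither the clonality of the knockout cells nor the guide used for these libraries is given in the sources used here. The study asked which genes depend on TXNDC9, a cofactor of the chaperonin that folds actin and tubulin, and in other experiments it used a proteasome inhibitor to follow the turnover of the MYC protein.

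The proteasome is the main protease of the cytosol and nucleus. Its core particle is a barrel of alpha and beta rings, and 3 of the beta subunits carry the active sites inside the barrel. A regulatory particle binds to the ends of the barrel. Its base holds a ring of ATPases that unfold ubiquitinated proteins, and its lid holds the deubiquitinase that removes the ubiquitin chain. Other activators can take the place of the regulatory particle, and dedicated chaperones assemble both particles. NFE2L1 is held in the endoplasmic reticulum membrane, and when proteasome capacity falls short it is processed, enters the nucleus and activates proteasome genes together.

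Values are in FPKM, that is fragments per kilobase of transcript scaled to the number of mapped fragments, so levels can be compared between genes on the scale of FPKM. Values are listed for wild-type replicates 1 and 2 first, and after "against" for knockout replicates 1 and 2. A gene was tested where its mean over the 4 libraries was above 1 FPKM, which held for 13246 genes and for 47 of the 48 proteasome genes. The exception was PSMB8. Below, a gene rose or fell where the adjusted p of limma on log2(FPKM + 0.1) was under 0.01, and it was called where the fold change was also at least 2. The added 0.1 makes the fold changes of low genes too small. The study's legends speak of independent experiments for RNA-seq values of other genes, but the labels do not tie these replicates to separate cultures, so p-values may measure only a technical spread between libraries. With 2 libraries a group, the smallest two-sided p of an exact permutation test is 0.333.

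The targeted gene TXNDC9 was 35.1 and 37.3 against 21.9 and 27.6 FPKM (log2 fold change −0.55, standard error 0.14, limma adjusted p = 0.0145), and it was 0.12 on the log2 scale after the rescaling given below. The hepatocyte markers went against the cell line of the label. All 8 markers (ALB, AFP, APOA1, APOB, TTR, SERPINA1, TF and HNF4A) lay below 0.5 FPKM in every library, and their summed level was between 0.0479 and 0.641 FPKM. Of 6 markers of other cell types, COL1A1 was between 17.5 and 31.5 FPKM and CD68 between 3.38 and 6.90 FPKM, while the other 4 (PTPRC, PECAM1, COL1A2 and KDR) stayed below 0.5 FPKM, and the sum of the 6 was between 24.8 and 34.9 FPKM. The part of this mismatch in the results below was not tested. All FPKM values of a library summed to 805816 and 971102 against 535973 and 568279. When every library was rescaled to the same sum (TPM), the median log2 fold change over the tested genes went from −0.09 to 0.59. Some changes are therefore also given after this rescaling or as a share of the sum. The rescaled values do not have the median of all genes taken off. In bulk RNA, fewer cells with a transcript and less transcript per cell cannot be told apart.

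Most proteasome genes were lower in knockout cells in FPKM. Of the 47 tested, 39 had a log2 fold change below 0 and 8 above 0, with a median of −0.71 against −0.09 for all tested genes. Of these, 22 fell, which is 46.8% where 27.1% of all tested genes fell, and 1 rose, where 23.7% of all genes rose. With the fold of 2 added, 10 were called lower (21.3%, against 15.3% of all genes) and 0 higher (against 14.2%). At an unadjusted limma p under 0.05, 30 members were lower and 4 higher (63.8% and 8.51%, against 38.3% and 33.0% of all genes), and in either direction together the share was 72.3% of members against 71.3% of all genes. The higher knockout value was still under the lower wild-type value for 36 of the tested members (76.6%, against 45.9% of all genes) and the reverse held for 6 (against 40.1%). The 10 called genes were PSMB3, PSMB4, PSMB10, PSMC3, PSMC4, PSMD4, PSME4, PSMG1, PSMG3 and PSMG4. Without wild-type replicate 1 there were 15 such calls (31.9%, against 19.9% of all genes) and without replicate 2 there were 7 (14.9%, against 11.8%), and without either knockout library limma called 0 of all 13246 genes. After rescaling to TPM the split was 0 lower and 2 higher (NFE2L1 and PSMD11), where 3.37% of all genes were called lower and 33.1% higher. The members' median was then −0.03 against 0.59 for all genes. TPM rescaling shifts all genes by about the same amount, so it leaves the order of their changes as it was. A correction for transcript length and GC content, described at the end, left 4 calls.

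**Figure D1:**
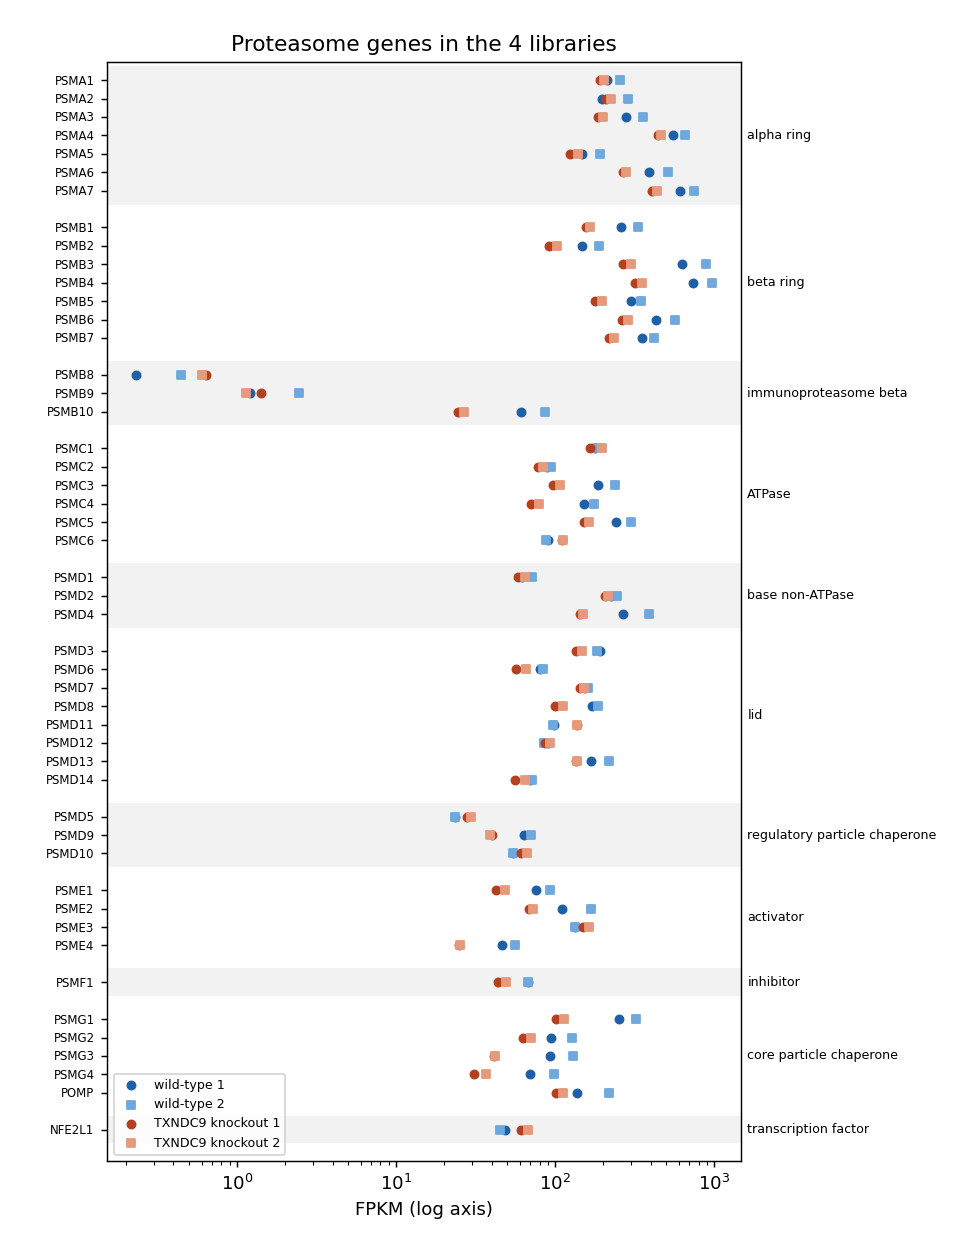
Level of each of the 48 proteasome genes in FPKM on a log axis, with 1 point per library and genes grouped by their place in the proteasome. Knockout points lie to the left of both wild-type points for all 7 beta ring genes, while PSMB8 and PSMB9 lie at or below 2.47 FPKM in every library.

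As a share of the library, the proteasome was nearly level. The 48 genes together took 1.13% and 1.16% of the FPKM sum against 1.15% and 1.17%, so the ranges of the groups overlapped. Within that share the classes did not keep their proportions. The beta ring took 0.355% and 0.382% against 0.279% and 0.290%, which is lower in both knockout libraries. The alpha ring took 0.297% and 0.310% against 0.342% and 0.343%, which is higher in both. The 8 lid genes of the list, which leave out SEM1, took 0.128% and 0.112% against 0.159% and 0.160%, also higher in both. ATPase genes went from 0.117% and 0.111% to 0.126% and 0.131%, and the chaperones of the core particle from 0.0803% and 0.0928% to 0.0632% and 0.0659%. A higher share was not a larger change than that of other genes. After rescaling to TPM the median log2 fold change was 0.27 for alpha ring, 0.37 for lid and 0.21 for ATPase genes. All 3 stayed below the median of 0.59 over all tested genes.

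**Figure D2:**
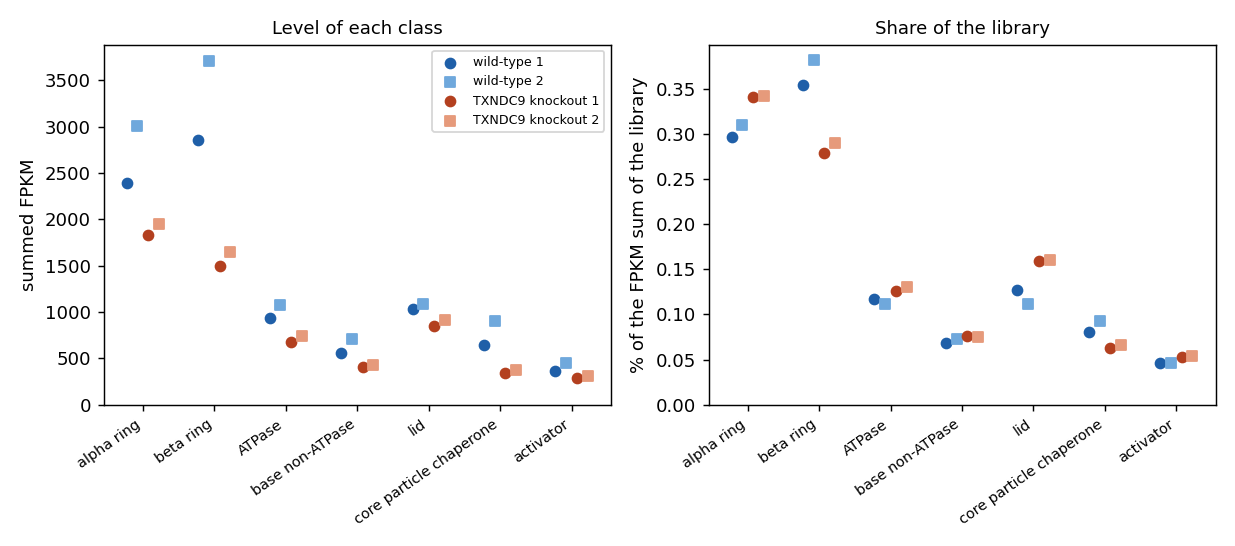
Summed FPKM (left) and percent of the FPKM sum of the library (right) for 7 classes of proteasome genes, with 1 point per library. In FPKM every class sum is lower in both knockout libraries, while in percent of the library the beta ring is lower and the alpha ring and lid are higher in both.

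The median changes of core, ATPase and lid genes were unequal. The 14 constitutive genes of the core particle had a median log2 fold change of −0.74 (range −1.39 to −0.14), and 8 of them fell. The 6 ATPase genes had a median of −0.47 (range −1.13 to 0.32), and 3 fell. The 8 lid genes had a median of −0.31 (range −0.76 to 0.48), with 1 that fell and 1 that rose. After rescaling to TPM these medians were −0.06, 0.21 and 0.37, where that of all tested genes was 0.59. The sign turned for ATPase and lid genes, but all 3 classes stayed below the median of all genes. With the length and GC correction the class medians were −0.40, −0.33 and −0.01, with 6, 2 and 1 genes that fell and 0 that rose. Corrected in this way, 19.7% of all genes fell and 13.3% rose. The geometric mean FPKM of core genes over that of lid genes was 2.75 and 3.37 against 2.18 and 2.19, a ratio taken within each library that did not overlap between the groups. Core over ATPase genes gave 2.25 and 2.58 against 2.04 and 2.02. The ratio of ATPase to lid genes was 1.22 and 1.31 against 1.07 and 1.08. These ratios are descriptions over genes chosen with results known and carry no test.

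The alpha ring forms the gate of the barrel. Of its 7 genes, 6 had both knockout values below both wild-type values (85.7%, against 45.9% of all genes). Only PSMA3 fell (14.3%, against 27.1%). With the length and GC correction 3 fell (PSMA3, PSMA4 and PSMA5), which is 42.9% against 19.7% of all genes. PSMA3 was 281 and 359 against 186 and 200.3 FPKM (log2 fold change −0.72, standard error 0.16, limma adjusted p = 0.00903). Its neighbours in size of change, PSMA6 and PSMA7, missed the threshold. PSMA6 was 392 and 510.0 against 266 and 278 FPKM (limma adjusted p = 0.0115), and PSMA7, the highest alpha gene in wild-type cells, was 608 and 749.8 against 407 and 439.7 FPKM (limma adjusted p = 0.0130). PSMA4 was 553 and 658 against 445 and 464 FPKM, which made it the highest proteasome gene of the knockout libraries. PSMA1 (−0.24), PSMA2 (−0.14) and PSMA5 (−0.36) had the smallest log2 differences of the ring, and the values of PSMA2 overlapped between the groups.

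All 7 constitutive beta ring genes fell, where 27.1% of all tested genes fell. Their log2 fold changes ran from −1.39 to −0.75, below the whole range of the alpha ring (−0.72 to −0.14). They stayed below 0 after rescaling to TPM, with a median of −0.17. With the length and GC correction, 3 of the 7 fell (PSMB2 at −1.26, PSMB3 at −0.74 and PSMB4 at −0.73), where 19.7% of all genes fell. That is the same number as in the alpha ring, and the medians were −0.41 for the beta and −0.39 for the alpha ring. The largest falls were those of PSMB3 and PSMB4, which are structural subunits without an active site. PSMB4 (ENSG00000159377, chr1:151399560-151401937, plus strand) was 741 and 973 against 317 and 354 FPKM. It fell from 857 ± 164 to 336 ± 26.4 FPKM (SD, n = 2 and 2), with a log2 fold change of −1.34 and a standard error of 0.18 (limma adjusted p = 0.00166). PSMB3 (ENSG00000277791, chr17:38752741-38764225, plus strand) was 629 and 886 against 269 and 301 FPKM (log2 fold change −1.39, standard error 0.20, limma adjusted p = 0.00201). PSMB4 was the highest proteasome gene of both wild-type libraries and stood below PSMA4 and PSMA7 in both knockout libraries.

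The 3 active-site subunits also fell, with smaller fold changes than PSMB3 and PSMB4, a difference that was not tested. PSMB5, which carries the chymotrypsin-like site, was 299 and 346 against 179 and 199 FPKM (log2 fold change −0.77, standard error 0.14, limma adjusted p = 0.00426). PSMB6, with the caspase-like site, was 433 and 568 against 263 and 287 FPKM (log2 fold change −0.85, standard error 0.17, limma adjusted p = 0.00682). PSMB7, with the trypsin-like site, was 351 and 418 against 219 and 236 FPKM (log2 fold change −0.75, standard error 0.14, limma adjusted p = 0.00524). The structural subunits PSMB1 and PSMB2 moved by −0.87 and −0.79 on the log2 scale, and PSMB2 was the lowest core gene in every library, at 148 and 189 against 91.0 and 103 FPKM. Over the rings as a whole, the geometric mean FPKM of beta genes relative to alpha genes was 1.20 and 1.20 against 0.833 and 0.859. As deposited, the beta ring was the higher of the rings in both wild-type libraries and the lower in both knockout libraries. With the length and GC correction the median changes of the rings were close, at −0.41 for beta and −0.39 for alpha genes.

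The immunoproteasome subunits replace the active-site subunits in cells exposed to interferon, and their genes were on very different levels. PSMB10, which replaces PSMB7, was 60.7 and 86.5 against 24.6 and 26.8 FPKM (log2 fold change −1.49, standard error 0.18, limma adjusted p = 0.00118). The ratio of PSMB10 to PSMB7 was 0.173 and 0.207 against 0.112 and 0.114, which is lower in both knockout libraries. After the length and GC correction PSMB10 was −0.54 and missed the threshold (limma adjusted p = 0.0122). PSMB9, which replaces PSMB6, was 1.22 and 2.47 against 1.41 and 1.15 FPKM (limma adjusted p = 0.354), with overlapping groups. PSMB8, which replaces PSMB5, was 0.233 and 0.446 against 0.638 and 0.607 FPKM, below the level required for the test. PSMB8 and PSMB9 overlap each other and PSMB8-AS1 on chromosome 6, and the sources do not say whether reads were assigned by strand. TAP1, the peptide transporter that shares a promoter region with PSMB9, rose from 12.7 and 13.0 to 17.5 and 18.5 FPKM (log2 fold change 0.48, standard error 0.10, limma adjusted p = 0.00692). Rescaling to TPM raised that value further, as it raised all tested genes by about the same amount.

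The chaperones that assemble the core particle held 3 of the 10 calls, which is 60.0% of these 5 genes against 15.3% of all genes. PSMG1 and PSMG2 form a dimer that builds the alpha ring, as do PSMG3 and PSMG4. PSMG1 (ENSG00000183527, chr21:39174769-39183488, minus strand) was 253 and 324 against 102 and 113 FPKM. It fell from 289 ± 50.5 to 108 ± 8.04 FPKM (SD, n = 2 and 2), with a log2 fold change of −1.41 and a standard error of 0.16 (limma adjusted p = 0.000957). Its partner PSMG2 was 94.7 and 127 against 62.9 and 71.1 FPKM (limma adjusted p = 0.0118), short of the threshold, and the ratio of PSMG1 to PSMG2 was 2.67 and 2.55 against 1.62 and 1.60. PSMG3 was 92.8 and 130.3 against 41.1 and 42.0 FPKM (log2 fold change −1.40, standard error 0.18, limma adjusted p = 0.00126), and after the length and GC correction it was −0.53 and missed the threshold (limma adjusted p = 0.0117). PSMG4 was 69.2 and 99.2 against 31.0 and 36.6 FPKM (log2 fold change −1.30, standard error 0.19, limma adjusted p = 0.00227). The ratio of PSMG3 to PSMG4 was 1.34 and 1.31 against 1.32 and 1.15, which overlapped between the groups. POMP, which is needed for the beta ring, was 138 and 219.8 against 101 and 112 FPKM, and the distance between its wild-type values left it at a limma adjusted p of 0.0356.

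**Figure D3:**
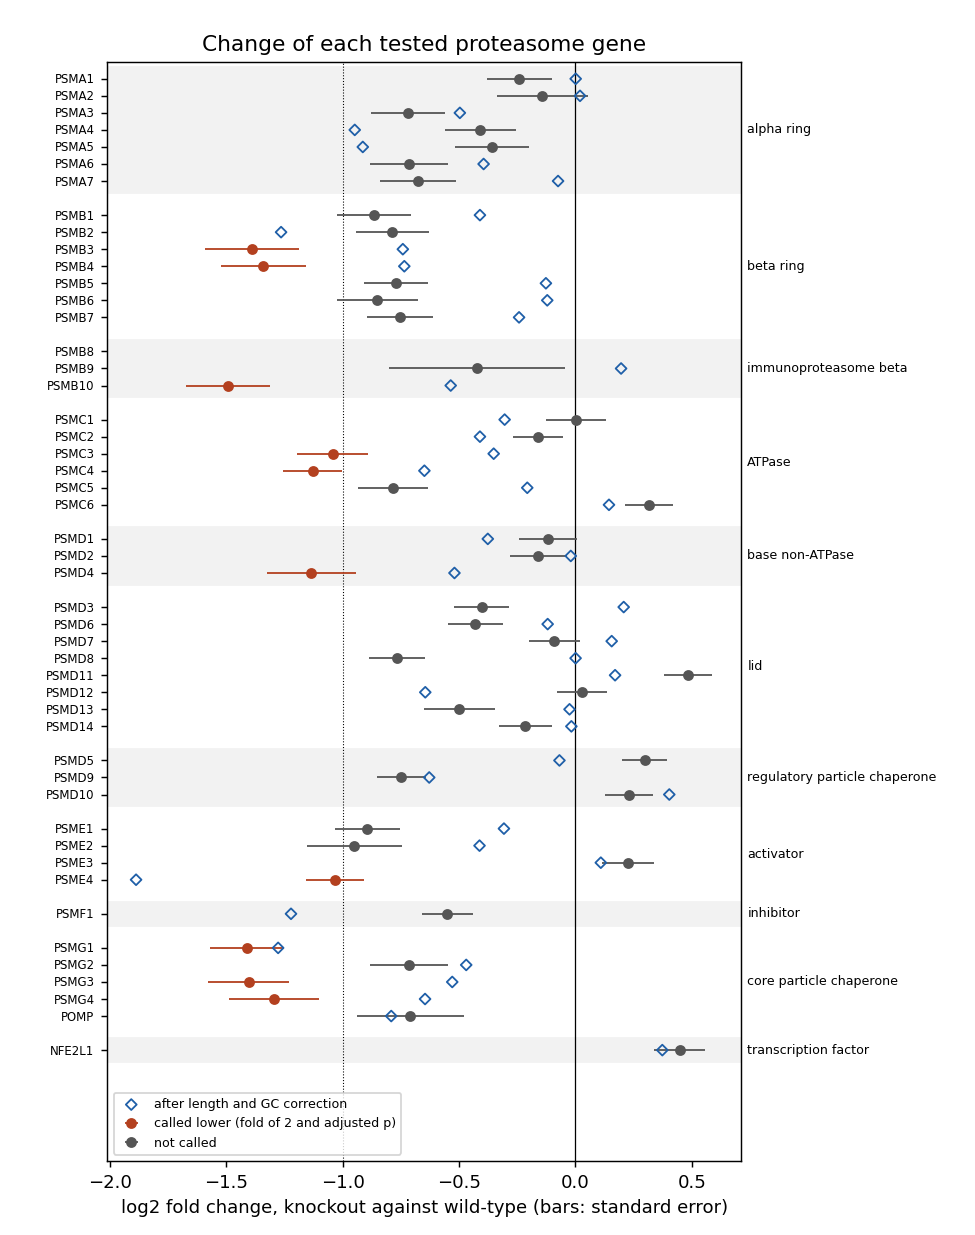
Log2 fold change of the 47 tested proteasome genes between knockout and wild-type libraries, with standard error bars. Filled points are values as deposited, with the 10 called genes in red, and open diamonds are values corrected for the length and GC of the transcript. The dotted line marks a fold of 2.

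Among the 6 ATPases of the base, PSMC3, PSMC4 and PSMC5 fell while PSMC1, PSMC2 and PSMC6 did not pass the test. PSMC4 (ENSG00000013275, chr19:39971165-39981764, plus strand) was 153 and 175 against 70.6 and 79.2 FPKM (log2 fold change −1.13, standard error 0.13, limma adjusted p = 0.000977). PSMC3 was 188 and 238 against 97.3 and 108 FPKM (log2 fold change −1.04, standard error 0.15, limma adjusted p = 0.00209). PSMC5 was 242 and 302 against 151 and 163 FPKM (log2 fold change −0.78, standard error 0.15, limma adjusted p = 0.00536). PSMC6 was higher in both knockout libraries, at 90.9 and 88.1 against 110.5 and 112 FPKM, with a limma adjusted p of 0.0353. PSMC1 was 178 and 184 against 167 and 197 FPKM and overlapped between the groups, and PSMC2 was 88.9 and 93.8 against 78.7 and 84.7 FPKM. Once corrected, PSMC4 and PSMC2 fell, while PSMC3 (−0.35) and PSMC5 (−0.21) did not pass.

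The base also holds the scaffolds PSMD1 and PSMD2 and the ubiquitin receptor PSMD4. PSMD4 (ENSG00000159352, chr1:151254709-151267479, plus strand) was 269 and 387 against 145 and 149.5 FPKM (log2 fold change −1.13, standard error 0.19, limma adjusted p = 0.00350). PSMD2 was 224 and 246 against 206 and 214 FPKM and PSMD1 62.0 and 72.2 against 58.6 and 65.0 FPKM, and neither passed the test (limma adjusted p = 0.286 and 0.436). Among the 17 regulatory particle genes of the list, which leave out ADRM1 and SEM1, PSMD4 was the highest in wild-type cells. In knockout cells it stood below PSMD2. After correction for length and GC PSMD4 was −0.52 and did not pass (limma adjusted p = 0.0164).

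Of the 8 lid genes of the list, PSMD8 was the gene that fell, at 172 and 186 against 99.6 and 112 FPKM (log2 fold change −0.76, standard error 0.12, limma adjusted p = 0.00270), and its log2 value was 0.0012 after the length and GC correction. SEM1, a lid gene outside the list, also fell and is given below. PSMD11 (ENSG00000108671, chr17:32444379-32483319, plus strand) was the gene that rose, at 99.3 and 96.9 against 138 and 137 FPKM (log2 fold change 0.48, standard error 0.10, limma adjusted p = 0.00803). After correction PSMD11 was 0.17 and did not pass (limma adjusted p = 0.0904). PSMD14, the deubiquitinase of the lid, was 69.1 and 71.3 against 56.4 and 64.9 FPKM (limma adjusted p = 0.146). PSMD3, PSMD6 and PSMD13 had both knockout values below both wild-type values, with log2 fold changes of −0.40, −0.43 and −0.50, but missed the threshold (limma adjusted p from 0.0207 to 0.0293). PSMD7 (−0.09) and PSMD12 (0.03) moved little, and the values of PSMD12 overlapped between the groups.

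The 3 chaperones of the base did not move together. PSMD9 fell, from 63.4 and 70.4 FPKM to 40.3 and 39.2 FPKM (log2 fold change −0.75, standard error 0.11, limma adjusted p = 0.00187). PSMD5 was 23.5 and 23.4 against 28.0 and 29.7 FPKM, and PSMD10, also known as gankyrin, was 54.6 and 54.1 against 61.1 and 66.5 FPKM. Both were higher in both knockout libraries, with limma adjusted p-values of 0.0360 and 0.0945.

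The activators split as well. PSME1 and PSME2 form the interferon-inducible activator ring, and both fell. PSME1 was 76.2 and 92.9 against 42.4 and 48.2 FPKM (log2 fold change −0.89, standard error 0.14, limma adjusted p = 0.00261) and PSME2 111 and 168 against 68.6 and 72.7 FPKM (log2 fold change −0.95, standard error 0.20, limma adjusted p = 0.00823), and their ratio overlapped between the groups (0.685 and 0.554 against 0.618 and 0.663). With the length and GC correction they were −0.31 and −0.41, and neither passed (limma adjusted p = 0.0228 and 0.0419). PSME4 (ENSG00000068878, chr2:53864069-53970993, minus strand), a single-chain activator of the nucleus, was 46.8 and 56.4 against 24.9 and 25.2 FPKM (log2 fold change −1.03, standard error 0.12, limma adjusted p = 0.00113). PSME3, which forms a nuclear activator ring of its own, was 134 and 133 against 150.2 and 163 FPKM (limma adjusted p = 0.121). The ratio of PSME3 to PSME1 was 1.76 and 1.44 against 3.54 and 3.39, and that of PSME4 to PSME3 was 0.348 and 0.423 against 0.166 and 0.155. The inhibitor PSMF1 was 67.8 and 67.6 against 43.6 and 49.0 FPKM (log2 fold change −0.55, standard error 0.11, limma adjusted p = 0.00605). Under TPM rescaling PSMF1 turned to 0.13, where the median of all tested genes was 0.59.

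NFE2L1 (ENSG00000082641, chr17:48048329-48061545, plus strand) was 48.6 and 45.4 against 60.7 and 67.8 FPKM, with a log2 fold change of 0.45 (standard error 0.11) and a limma adjusted p of 0.0139, short of 0.01. Its groups did not overlap, with the knockout values above. Genes of its processing and its partners were read as a list of 11, of which 6 rose and 1 fell, where 23.7% of all genes rose and 27.1% fell. Once corrected for length and GC, 1 rose and 0 fell, where 13.3% of all genes rose and 19.7% fell. SEL1L, an adaptor of the degradation complex that keeps NFE2L1 low, was 5.47 and 5.48 against 15.2 and 15.6 FPKM (log2 fold change 1.47, standard error 0.10, limma adjusted p = 0.000512). DDI2, the protease that releases NFE2L1 from the membrane, was 4.15 and 3.65 against 8.80 and 8.83 FPKM (log2 fold change 1.16, standard error 0.13, limma adjusted p = 0.000875). NFE2L3, its closest relative, was 1.07 and 0.944 against 2.08 and 2.58 FPKM (log2 fold change 1.13, standard error 0.25, limma adjusted p = 0.00920). All 3 were also called higher. TPM rescaling raises all genes by about the same amount, so it could not turn these values. After the correction described below the values of the 3 genes were 0.49, 0.16 and 0.86, and SEL1L alone still passed the test. Their canonical transcripts are 7919, 10667 and 3740 nt long.

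Promoters were read for the sites that NFE2L1 and MYC are known to bind. RefSeq promoter windows (250 bases before to 50 after the start site, GRCh38.p14) were found for 42 of the 48 genes in 52 windows. The core of the antioxidant response element, searched as TGACNNNGC on both strands, was in 15 of these windows (28.8%) against 13.3% of all 35116 windows. The E-box CACGTG, which reads the same on both strands, was in 3 of the windows (5.77%) against 7.26% of all. PSMB3 and PSMD9 held both motifs, which do not overlap there. A match describes letters and is not evidence of binding. The 250 bases before the start site of PSMB3 (chr17:38752491-38752740, plus strand) are shown because PSMB3 had the largest fall of the constitutive core. Capitals mark the E-box, 238 bases before the start site, and the antioxidant response element core, 104 bases before it.
PSMB3: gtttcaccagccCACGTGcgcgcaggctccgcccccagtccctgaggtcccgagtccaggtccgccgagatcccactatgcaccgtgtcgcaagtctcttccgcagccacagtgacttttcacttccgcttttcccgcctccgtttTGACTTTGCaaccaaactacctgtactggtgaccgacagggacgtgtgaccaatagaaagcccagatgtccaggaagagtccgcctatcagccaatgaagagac

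The element was present in genes that fell and in genes that did not. Of 15 tested genes with a match, 8 fell and the median log2 fold change was −0.75, and of 26 tested genes with a window and no match, 9 fell and the median was −0.39. Over all tested genes 27.1% fell. These counts and medians are as deposited and were not taken after the length and GC correction. The windows below show 10 bases on each side of the match, in the direction of the gene, with the match in capitals. They are given for PSMG1, PSME4, PSME1 and PSMD9, which fell as deposited, and for PSMD5 and PSMD12, which did not pass the test. With the correction PSMD12 fell (−0.64, limma adjusted p = 0.00259) and PSME1 did not pass (−0.31, limma adjusted p = 0.0228). PSMD9 had a match on either strand.
PSMG1 (chr21:39183616-39183644, minus strand): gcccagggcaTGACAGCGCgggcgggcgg
PSME4 (chr2:53971009-53971037, minus strand): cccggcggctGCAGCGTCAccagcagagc
PSME1 (chr14:24136098-24136126, plus strand): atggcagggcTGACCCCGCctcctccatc
PSMD9 (chr12:121888631-121888659, plus strand): cgctactcctGCCGGGTCAccacaggcgc
PSMD9 (chr12:121888678-121888706, plus strand): cggcttccggTGACCCAGCtccgccctaa
PSMD5 (chr9:120843038-120843066, minus strand): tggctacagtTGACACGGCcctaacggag
PSMD12 (chr17:67366724-67366752, minus strand): agacaaaaccTGACGCTGCaggctggagt

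Proteins that work with the proteasome were read from further lists. Of 10 tested proteasome-associated genes out of 12, 5 fell and 2 rose, and 5 and 0 did with the length and GC correction. Over all tested genes 27.1% fell and 23.7% rose, and 19.7% and 13.3% did with the correction. ADRM1, a ubiquitin receptor of the base, had a larger fall as deposited than any of the 48 genes above, at 322 and 383 against 104 and 112 FPKM (log2 fold change −1.70, standard error 0.14, limma adjusted p = 0.000538). SEM1, the smallest lid protein, listed under its older symbol SHFM1, was 254 and 352 against 104 and 105 FPKM (log2 fold change −1.52, standard error 0.18, limma adjusted p = 0.00106). PAAF1, a chaperone of the ATPase ring, was 12.9 and 14.6 against 6.30 and 6.80 FPKM (log2 fold change −1.05, standard error 0.12, limma adjusted p = 0.000963). PSMA8 and PSMB11, the testis and thymus forms of core subunits, were listed at 0 in all 4 libraries.

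Among 8 ubiquitin receptors and unfoldase genes, 2 fell and 3 rose, and 1 and 2 did with the correction. For each list here, 27.1% of all tested genes fell and 23.7% rose, and 19.7% and 13.3% did with the correction. The shuttle receptor UBQLN2 was 12.0 and 10.2 against 24.0 and 25.3 FPKM (log2 fold change 1.15, standard error 0.12, limma adjusted p = 0.000818) and its relative UBQLN1 50.3 and 46.2 against 88.5 and 95.1 FPKM (log2 fold change 0.93, standard error 0.11, limma adjusted p = 0.00105), and their corrected values were 0.71 and 0.53, which passed the test without a fold of 2. Of the 6 ubiquitin and activating enzyme genes, 4 fell and 1 rose, and 1 and 0 did with the correction. The polyubiquitin gene UBB was 1181 and 1412 against 690.2 and 792 FPKM (log2 fold change −0.80, standard error 0.18, limma adjusted p = 0.00964), and the corrected value of −0.18 did not pass (limma adjusted p = 0.117). UBA6, the less used activating enzyme, was 2.75 and 3.04 against 8.72 and 9.61 FPKM (log2 fold change 1.63, standard error 0.13, limma adjusted p = 0.000542), and the corrected value of 0.45 did not pass (limma adjusted p = 0.0317). Of 10 genes of antigen presentation and interferon response, 2 fell and 2 rose, and 1 and 1 did with the correction. HLA-C was 67.6 and 88.9 against 21.5 and 24.9 FPKM (log2 fold change −1.74, standard error 0.16, limma adjusted p = 0.000654) and B2M was 1232 and 1506 against 897 and 944 FPKM (limma adjusted p = 0.0336). HLA genes are near-identical to each other, so the value of HLA-C, which was −0.87 with the correction, is uncertain. Among the genes counted as fallen in these lists, AKIRIN2, UBA1 and SYVN1 turned to between 0.03 and 0.06 on the log2 scale under TPM rescaling. The median of all tested genes was 0.59 under that rescaling.

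Transcript length and base composition moved with these changes. Across the 47 tested proteasome genes, which share the same 4 libraries, Spearman's rho between the log2 fold change and the length of the canonical transcript was 0.553, and with GC content it was −0.504. The correlations over 13112 tested genes were 0.495 and −0.462. Proteasome transcripts are short, with a median of 1494 nt over all 48 genes against 2866.5 nt over all tested genes with a transcript. Those of the 22 genes that fell had a median of 1181.5 nt and 52.1% GC, and those of the 24 that did neither 1889 nt and 43.0% GC. The wild-type libraries differed in the same respect. Of the 47 genes 38 were higher in wild-type replicate 2 than in replicate 1, and that log2 ratio had a correlation of −0.641 with transcript length. Of the same genes 44 were higher in knockout replicate 2 than in replicate 1, by a median of 0.12 on the log2 scale against 0.27 for the wild-type pair, with a correlation of −0.0715.

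**Figure D4:**
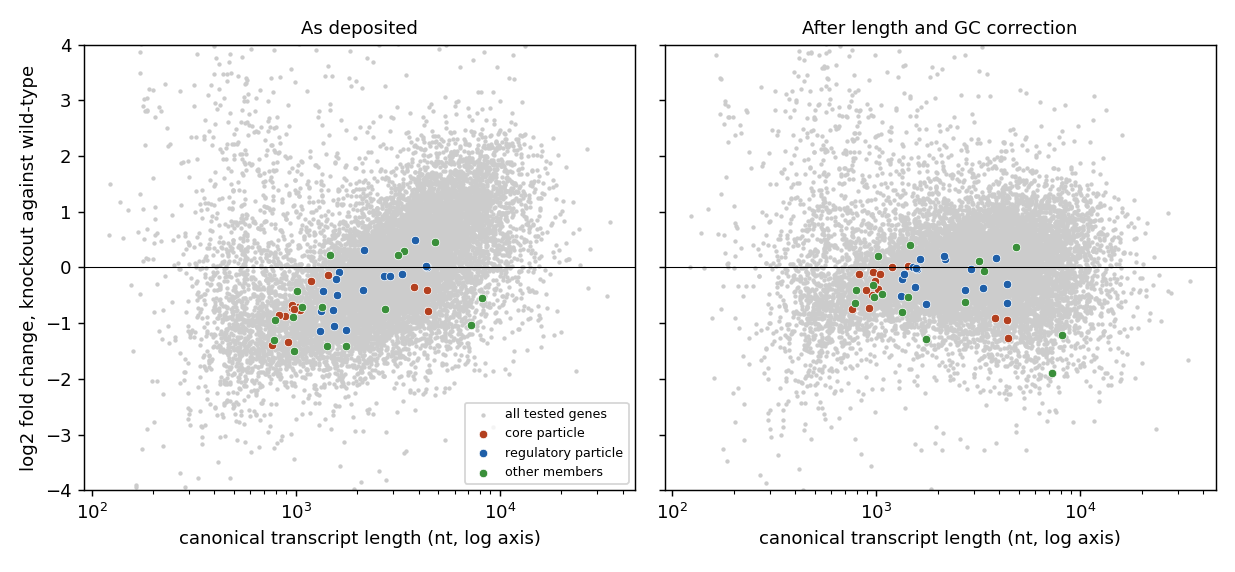
Log2 fold change against canonical transcript length (log axis) for all tested genes in grey and the 47 tested proteasome genes in colour, as deposited (left) and corrected for both length and GC (right). The axis ends at ±4, which leaves out 70 genes on the left and 81 on the right. On the left most short core genes lie below most genes of the regulatory particle, and on the right the 3 long core transcripts, PSMA4, PSMA5 and PSMB2, are the lowest of the core.

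A loess surface over length and GC was then subtracted from each library, which left 14 proteasome genes that fell (29.8%, against 19.7% of all genes) and 0 that rose (against 13.3%). At an unadjusted limma p under 0.05, 28 were lower and 2 higher (59.6% and 4.26%, against 34.1% and 27.9% of all genes), which together is 63.8% of members against 62.0% of all genes. With the fold of 2, 4 were called lower (8.51%, against 7.39%) and 0 higher (against 6.41%). The members' median was −0.35, where that of all genes was −0.05. The lid genes of the list stood at a median of −0.01, the ATPases at −0.33 and the chaperones of the core particle at −0.65. Of the 22 genes that fell as deposited, 10 fell after the correction as well, namely PSMA3, PSMB2, PSMB3, PSMB4, PSMC4, PSMD9, PSME4, PSMF1, PSMG1 and PSMG4. PSMG1 (−1.28, limma adjusted p = 0.00120) and PSME4 (−1.89, limma adjusted p = 0.00111) were called either way. PSMB2 (−1.26) and PSMF1 (−1.22) passed the fold of 2 only after it. PSMA4 (−0.95), PSMA5 (−0.91), PSMC2 (−0.41) and PSMD12 (−0.64) fell only after it. Among the active-site subunits, PSMB5 (−0.13), PSMB6 (−0.12) and PSMB7 (−0.24) no longer passed, nor did PSMD11 (0.17). Of the genes outside the list, ADRM1 (−0.69), SEM1 (−1.41) and PAAF1 (−1.56) still fell. The canonical transcript may not be the form these cells express, which was not tested.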

How the data were processed

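Polyadenylated RNA of 4 libraries labelled HepG2, 2 wild-type and 2 TXNDC9 knockout, was analysed. The authors mapped reads to hg38 with TopHat2 and an Ensembl annotation and deposited FPKM values per gene from Cuffdiff. Their versions, the library scaling and whether strand was used in counting are not given in the sources used here. Averages, fold changes, p-values and q-values of the authors were not used. Identifiers in the deposited table (231916 lines, 57979 with values, each identifier 4 times) stood on other lines than their symbols, so they were put back in order. After that, 34949 symbols were those of GENCODE release 44 for the identifier, against 1 before. Positions, canonical transcript lengths and GC content came from that release (hg38), promoters from RefSeq.

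Genes with a mean above 1 FPKM (13246) entered a limma 3.58.1 fit of log2(FPKM + 0.1) (trend, Benjamini-Hochberg adjustment over all of them) in R 4.3.3. The fit was tested on simulated data. Calls used the thresholds of the study (fold of 2, adjusted p of 0.01). Counts at that p with no fold threshold were added after seeing the data. The length and GC correction fitted a loess surface (span 0.3) to the deviation of each library from the gene mean, over 13112 genes. Depth is unknown, as low values showed no step worth 1 read (at most 4.53% of low genes shared a log2 ratio), so intervals and detection limits are not given. Members and lists were chosen with earlier results of these data known. Named genes are all members, TXNDC9, the 3 tested genes of each further list with the largest change, and genes chosen after their values were seen (TAP1, PSMA8, PSMB11, AKIRIN2, UBA1 and SYVN1), and some genes of the further lists are not reported here. Tables were handled in Python 3.11.15 (pandas 2.3.3), and matplotlib 3.10.9 drew the figures. Alternatives covered the pseudocount, the filter, thresholds, scaling, the variance trend, the replicate block, the correction and each library left out.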

Additional observations from a re-analysis of the deposited data

How the results depend on the processing

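Among the proteasome genes, 10 were called lower and 0 higher. Without a filter on low values (26435 genes) 5 were called lower, and with no fold threshold 22 were called lower and 1 higher. With TPM rescaling 0 were called lower and 2 higher, and with the length and GC correction 4 were called lower, also with a replicate block added. The number of all genes called lower was 447 with TPM rescaling, 969 with the correction, 975 with the correction and the replicate block, and 3590 with no fold threshold. The number of all genes called higher was 4380, 841, 841 and 3142 in the same order, and 1220 with an average above 5 FPKM. The numbers of the replicates did not pair the libraries (correlation of same-numbered deviations −0.0904). The replicate block left 10 members called lower and gave 2146 of all genes called lower and 1960 of all genes called higher. Without the fold of 2, some genes that missed an adjusted p of 0.01 above passed it with the block. PSMA6, PSMA7, PSMG2, POMP, PSMD6 and PSMD13 then fell, and NFE2L1 rose (limma adjusted p = 0.00805). The share of all genes that passed in this way is not given.

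The median log2 fold change of the members was −0.029 with TPM rescaling and −0.35 with the correction, where that of all tested genes was 0.59 and −0.05. That of core genes was −0.056 with TPM rescaling, −0.88 with median centring and −0.40 with the correction. That of ATPase genes was 0.21, −0.62 and −0.33 and that of lid genes 0.37, −0.45 and −0.0079 in the same order, and the replicate block did not change the corrected medians. TXNDC9 was 0.12 with TPM rescaling.

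Single genes turned direction as well, beside a median of 0.59 over all tested genes with TPM rescaling. With TPM rescaling the log2 fold changes were 0.44 for PSMA1, 0.54 for PSMA2, 0.27 for PSMA4, 0.32 for PSMA5, 0.0063 for PSMA7, 0.22 for PSMB9, 0.52 for PSMC2, 0.56 for PSMD1, 0.52 for PSMD2, 0.28 for PSMD3, 0.25 for PSMD6, 0.59 for PSMD7, 0.18 for PSMD13, 0.47 for PSMD14, 0.13 for PSMF1 and 0.11 for B2M. With the correction, with or without the block or the fold threshold, they were 0.0017 for PSMA1, 0.020 for PSMA2, 0.20 for PSMB9, −0.30 for PSMC1, 0.21 for PSMD3, 0.16 for PSMD7, 0.0012 for PSMD8, −0.64 for PSMD12 and −0.068 for PSMD5. With median centring, PSMC1 was −0.14 and PSMD12 −0.12. The cause of these changes was not tested.

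Leaving out 1 library at a time gave 0 to 15 members called lower, 0 to 0 called higher, and over all genes 0 to 2633 lower and 0 to 2136 higher calls. Medians ran from −0.82 to −0.52 for members, −0.89 to −0.58 for core, −0.57 to −0.37 for ATPase and −0.39 to −0.22 for lid genes, and TXNDC9 from −0.72 to −0.39. Ranges that crossed 0 were those of PSMA2 (−0.41 to 0.13), PSMB9 (−0.91 to 0.058), PSMC1 (−0.12 to 0.12), PSMD12 (−0.026 to 0.082). The counts of 0 came from leaving out either knockout library, where the lone knockout library was assumed to vary like the wild-type libraries. At an unadjusted limma p under 0.05 the members then numbered 19 lower and 1 higher without replicate 1 (42.6%, against 53.8% of all genes), and 24 lower and 0 higher without replicate 2 (51.1%, against 55.2%). Both pseudocounts (1 and 0.01), the adjusted p under 0.05 and the fit with no variance trend kept these counts within 1.5 times. Depth and its limits are unknown.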

Other observations

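Processed copies of the proteasome genes were nearly silent in the table. GENCODE release 44 names 45 pseudogenes after 18 of the 48 genes, and for none of these 18 did the summed FPKM of the copies pass 5% of that of the parent. The 13 copies of PSMC1 had the highest share, at 0.466% of the mean of PSMC1. Of the 48 genes, 30 overlap another annotated gene and 19 a protein-coding gene, among them PSMG4 (TUBB2B and SLC22A23), PSMC2 (DNAJC2, PMPCB and SLC26A5) and PSME2 (RNF31), and their values depend on how the authors assigned reads.

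As deposited, the spread of levels among the 14 constitutive core genes was smaller in both knockout libraries. The standard deviation of their log2 levels was 0.765 and 0.769 against 0.623 and 0.608, and the ratio of the highest to the lowest gene was 5.01 and 5.16 against 4.89 and 4.51. Among the 17 genes of the regulatory particle the standard deviation was 0.667 and 0.770 against 0.580 and 0.549. Among the 4 activators it went the other way, with 0.671 and 0.685 against 1.10 and 1.13. The spread over all tested genes, and that after the length and GC correction, are not given. Among the core genes Spearman's rho of the log2 fold change was 0.679 with transcript length and −0.780 with GC content. Over all tested genes it was 0.495 and −0.462.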
